A study of Mus musculus with 36 samples.

Results

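The difference in diet response between 2 inbred mouse strains was measured in the hypothalamus, from 24 of the 36 bulk RNA-seq libraries of the series. The members were chosen by their labels alone: all libraries of NZO/HlLtJ, an obesity-prone inbred strain, and of C57BL/6J, the usual reference strain, with 6 libraries per strain and diet (3 female, 3 male). The mice of both strains were labelled wild type and ate either a control diet (10% fat with fiber) or a high-fat, high-sugar diet (HFHS, 44% fat with fiber) starting at 6 weeks, with collection at 15 weeks. What the fat percentages are a share of is not stated in the labels. The quantity reported for each gene is the difference, meaning the HFHS less control change in NZO/HlLtJ minus the same change in C57BL/6J, with the sexes weighted equally. A positive difference therefore means that the gene went up more, or down less, on HFHS in NZO/HlLtJ. The labels do not say which libraries came from separate animals, so p-values measure the spread between these samples.

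The hypothalamus holds the neurons that set food intake. Neurons of the arcuate nucleus that make Npy and Agrp drive feeding, and neighbouring neurons that make Pomc and Cartpt restrain it; leptin, the hormone of fat tissue, acts on both through the receptor Lepr, with Socs3 as a feedback inhibitor. Chaperones such as Hspa1a, Hspa1b and Hsph1 hold, fold and release other proteins, and their genes are switched on by heat shock factors when unfolded proteins build up in the cytosol. The endoplasmic reticulum has its own chaperones, such as Hspa5, which are raised by the unfolded protein response.

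The libraries held 23.9 M to 47.3 M counts (median 34.5 M), of which 4.09% to 6.16% were mitochondrial. Markers of the tissue were present in all 24 libraries. The melanin-concentrating hormone precursor Pmch lay between 213 and 496 CPM (counts scaled to a common library total), the orexin precursor Hcrt between 20.9 and 85.5 CPM, and the hypothalamic transcription factor Nkx2-1 between 20.1 and 38.2 CPM. The summed level of the 14 hypothalamic identity markers overlapped between the diets in both strains, at 242 to 303 CPM in NZO/HlLtJ controls, 241 to 289 CPM on HFHS, 226 to 292 CPM in C57BL/6J controls and 238 to 297 CPM on HFHS. Some libraries stood apart on lists of other cell types. NZO/HlLtJ control male 1 and C57BL/6J control male 3 were lowest of their groups in the mean level of mural and fibroblast markers, at 3.26 and 3.54 log2 CPM against 3.8 to 4.61 and 4.4 to 4.75 in the other controls of their strains. In tissue of mixed cells, fewer cells of a type and less RNA per cell cannot be told apart.

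No gene passed the test of the difference. With the quasi-likelihood test of edgeR on 19517 genes, 0 genes (0%) reached an adjusted p under 0.05, and the smallest adjusted p was 0.162. At an unadjusted p under 0.05, 1643 genes (8.42%) were counted, 786 (4.03%) with a positive and 857 (4.39%) with a negative difference. DESeq2 called 18 genes, 10 positive and 8 negative, and limma on the deposited values called 0. The contrasts that make up the difference were tested in the same fit. For diet, 45 genes (0.231%) were called in NZO/HlLtJ at an adjusted p under 0.05, of which 31 (0.159%) rose and 14 (0.0717%) fell. In C57BL/6J 0 genes (0%) were called, and 892 (4.57%) had an unadjusted p under 0.05. Across the 15429 genes with a mean of at least 1 CPM, the diet changes of the strains had a Pearson correlation of 0.0371, a description over genes, which are not independent replicates. The NZO/HlLtJ count fell to 0 when a linear term for the sample number in the labels was added, and ran from 7 to 102 when single libraries were left out.

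The 15 genes named here had the smallest p among genes with a proper symbol and an average level of 1 CPM or more, and none of them passed. Of these, 9 had a positive difference (Npy, Adamtsl1, Mt2, Mir22hg, Whamm, Gpr146, Ehd3, Sat2, Rbm34) and 6 a negative one (Oscar, Hspa1b, Suv420h2, Nuf2, Hspa1a, Dram1). DESeq2 called 13 of the 15, leaving out Sat2 and Dram1.

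Of the gene lists, the heat shock chaperones had the most members with a small p. Of 22 heat shock chaperones and co-chaperones tested, 21 had a negative difference, with a median of -0.29 log2 units against 0.01 over all genes tested, and 19 had an unadjusted p under 0.05 in that direction, where 4.39% of all genes did. The list is mostly cytosolic, but Hspd1 and Hspe1 encode chaperones of mitochondria. None of the 22 was called for the difference. In NZO/HlLtJ alone, 11 of the 22 were called lower on HFHS, where 0.0717% of all genes were. In 18 of the 22 all 6 NZO/HlLtJ HFHS libraries lay below all 6 controls, as in 0.82% of all genes. In C57BL/6J the changes of the 22 ran from -0.09 to 0.15 log2 units, and 0 had an unadjusted p under 0.05 by edgeR. The list was chosen with earlier results of these data known.

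The promoters of Hspa1b, Hspa1a and Hspb1 are shown. Only named genes whose promoter held a heat shock element could be shown, so a match in these windows was fixed in advance. Among such genes, these had negative differences of more than 1 log2 unit and lie clear of other exons. Capitals mark the letters GAANNTTC or TTCNNGAA, searched on both strands (each pattern is its own reverse complement), the core of the heat shock element that heat shock factors bind. The letters are the GRCm38.p6 reference from RefSeq, not the NZO/HlLtJ sequence, and each run is the 250 bases before the start of transcription.
Hspa1b, chr17:34959239-34959488, minus strand: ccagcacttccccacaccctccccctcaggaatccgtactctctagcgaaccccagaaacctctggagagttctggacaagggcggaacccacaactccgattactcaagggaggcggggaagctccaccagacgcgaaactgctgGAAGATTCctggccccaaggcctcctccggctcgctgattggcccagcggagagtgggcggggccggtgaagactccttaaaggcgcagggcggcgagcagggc
Hspa1a, chr17:34972157-34972406, minus strand: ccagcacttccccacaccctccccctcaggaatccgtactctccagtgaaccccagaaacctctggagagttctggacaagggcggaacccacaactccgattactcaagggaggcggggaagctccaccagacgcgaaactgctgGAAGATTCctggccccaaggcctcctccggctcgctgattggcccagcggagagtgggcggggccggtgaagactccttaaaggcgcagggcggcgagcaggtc
Hspb1, chr5:135887669-135887918, plus strand: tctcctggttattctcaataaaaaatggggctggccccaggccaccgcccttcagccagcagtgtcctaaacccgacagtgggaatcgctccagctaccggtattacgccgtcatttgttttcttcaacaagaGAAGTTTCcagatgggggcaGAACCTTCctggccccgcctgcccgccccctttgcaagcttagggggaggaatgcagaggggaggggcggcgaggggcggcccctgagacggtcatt
The windows of Hspa1a and Hspa1b matched at 247 of 250 bases (98.8%) and each held 1 match, 104 bases before the start. Hspb1 held 2 matches, 117 and 97 bases before the start. Of the list's start sites in the RefSeq table, 10 of 24 (41.7%) held a match within 250 bases, against 12.8% of 32851 promoters of that length, and 12.5% against 1.46% held at least 2. These start sites are not independent: the Hspe1 and Hspd1 windows overlap and share their matches, and the Hsph1 windows share theirs. By gene, 18 of the 22 had a promoter there and 9 of the 18 held a match. Dnajb1, Stip1, Ahsa1 and Chordc1 were among those without a match. A match describes letters in the reference and is not a measured binding site.

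Hspa1b encodes an inducible Hsp70 chaperone (chromosome 17, 34956436 to 34959238, minus strand). In NZO/HlLtJ its level was 15.1, 24.1 and 52.7 CPM (lowest, median, highest of 6) on control diet and 3.87, 4.66 and 5.76 CPM on HFHS. All 6 HFHS libraries were below all 6 controls. In C57BL/6J it was 5.58, 9.55 and 22 CPM on control diet and 5.04, 9.78 and 21.6 CPM on HFHS, and the groups overlapped almost entirely. The gene fell in NZO/HlLtJ by 2.55 log2 units (SE 0.35, adjusted p = 0.00412 by edgeR), while the C57BL/6J change was -0.02 (SE 0.33). The difference was -2.53 (SE 0.48), to 0.173 times, with an adjusted p of 0.162 by edgeR and 0.00991 by DESeq2. The NZO/HlLtJ HFHS median lay below every C57BL/6J library, and the NZO/HlLtJ controls reached above both C57BL/6J groups.

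Hspa1a, the neighbouring gene with a nearly identical sequence (chromosome 17, 34969190 to 34972156), gave a level of 27.5, 36.9 and 73.8 CPM in NZO/HlLtJ controls and 12.7, 14.5 and 15.9 CPM on HFHS. The C57BL/6J groups spanned 12.5 to 33.6 CPM and 12.5 to 34.7 CPM. Its difference was -1.53 (SE 0.34, adjusted p = 0.235 by edgeR). How reads were divided between these copies is uncertain, so their separate values are too. Hsph1, an Hsp110 protein that reloads Hsp70, was 384, 466 and 514 CPM in NZO/HlLtJ controls against 290, 304 and 316 CPM on HFHS. The groups did not overlap. In C57BL/6J, controls spanned 331 to 515 CPM and HFHS libraries 343 to 514 CPM, so neither diet stood apart. It fell in NZO/HlLtJ by 0.61 log2 units (SE 0.09, adjusted p = 0.00845 by edgeR), and its difference was -0.56 (SE 0.13, adjusted p = 0.319).

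Dnajb1, an Hsp40 partner of Hsp70, spanned 69.6 to 134 CPM in NZO/HlLtJ controls and 47.5 to 58.6 CPM on HFHS, with a difference of -0.81 (SE 0.21). The small heat shock protein Hspb1 spanned 8.21 to 15.7 CPM and 5.23 to 6.71 CPM, with a difference of -1.14 (SE 0.29). Chordc1, a co-chaperone of Hsp90, spanned 71.1 to 89.1 CPM and 50.1 to 63.5 CPM, with a difference of -0.61 (SE 0.16). In all 3 genes the NZO/HlLtJ groups did not overlap and the C57BL/6J groups did. Of Hsp90 and further partners, Hsp90aa1 fell on HFHS in NZO/HlLtJ by 0.26 (SE 0.05), its activator Ahsa1 by 0.33 (SE 0.07), the adaptor Stip1, which joins Hsp70 to Hsp90, by 0.39 (SE 0.08) and the Hsp90 co-chaperone Fkbp4 by 0.32 (SE 0.06). The members without an unadjusted p under 0.05 for the difference were Hspa4 at -0.09 (SE 0.05), Bag3 at -0.14 (SE 0.15) and Hspb8 at 0.15 (SE 0.13), the last being the single positive member, and they were singled out after their values were seen. The 3 heat shock factor genes tested had differences of -0.12 to 0.01, and 0 had an unadjusted p under 0.05 by edgeR. No chaperone stood out by sex. The female less male contrast of the difference had a median of 0.03 over the 22 and 0 members with an unadjusted p under 0.05.

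**Figure D1:**
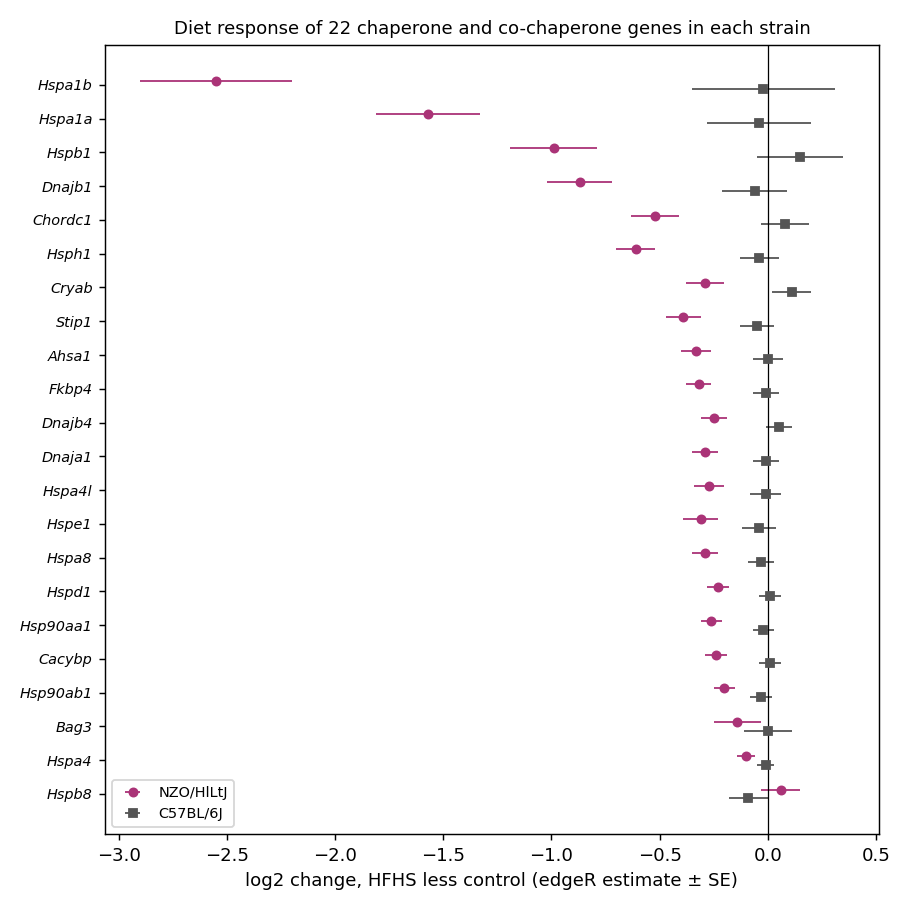
Diet change in log2 units (HFHS less control, edgeR estimate with its standard error as bars) for the 22 chaperone and co-chaperone genes, NZO/HlLtJ as circles and C57BL/6J as squares. NZO/HlLtJ changes reach -2.55 for Hspa1b and lie below 0 for 21 of 22 genes, while C57BL/6J changes stay between -0.09 and 0.15.

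Each label carries a running sample number, and what it stands for is not given. In NZO/HlLtJ, 4 controls carry the lowest numbers, and the other 2 controls fall between the HFHS females and the HFHS males. Within each sex of C57BL/6J, and within NZO/HlLtJ males, all controls carry lower numbers than all HFHS libraries. Diet and sample number therefore cannot be told apart within those groups. The mean level of the chaperone list was 6.94 to 7.28 log2 CPM in the 4 low-number controls, 6.89 and 7.16 in the remaining pair, and 6.52 to 6.64 on HFHS, so the controls of both number ranges lay above every HFHS library. In C57BL/6J the list ran from 6.54 to 7.11 in controls and 6.65 to 7.1 on HFHS. Without the 4 low-number controls, an alternative chosen after seeing the data, 16 of 22 members still had an unadjusted p under 0.05 for a negative difference (1.95% of all genes did) and the median was -0.28. That fit called 0 genes for diet in NZO/HlLtJ by edgeR. With a term for sample number in each strain, 19 of 22 had such a p for a negative difference (3.76% of all genes did) and the median was -0.51. Immediate early genes, which neurons switch on within minutes of activity or handling, were arranged differently in NZO/HlLtJ. Their mean level in NZO/HlLtJ was 3.93 to 4.2 log2 CPM in the low-number controls and 3.5 and 3.57 in the other 2, beside 3.35 to 3.61 on HFHS. In C57BL/6J it was 4.3 to 5.09 in the 7 libraries with the lowest numbers (5 controls, 2 HFHS) and 3.34 to 3.96 in the other 5 (1 control, 4 HFHS), a split chosen after the values were seen. Over the same split the C57BL/6J chaperone list was 6.8 to 7.11 and 6.54 to 6.85 log2 CPM, also higher at low numbers but with overlap. The part of what the numbers stand for in the chaperone values was not tested.

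**Figure D2:**
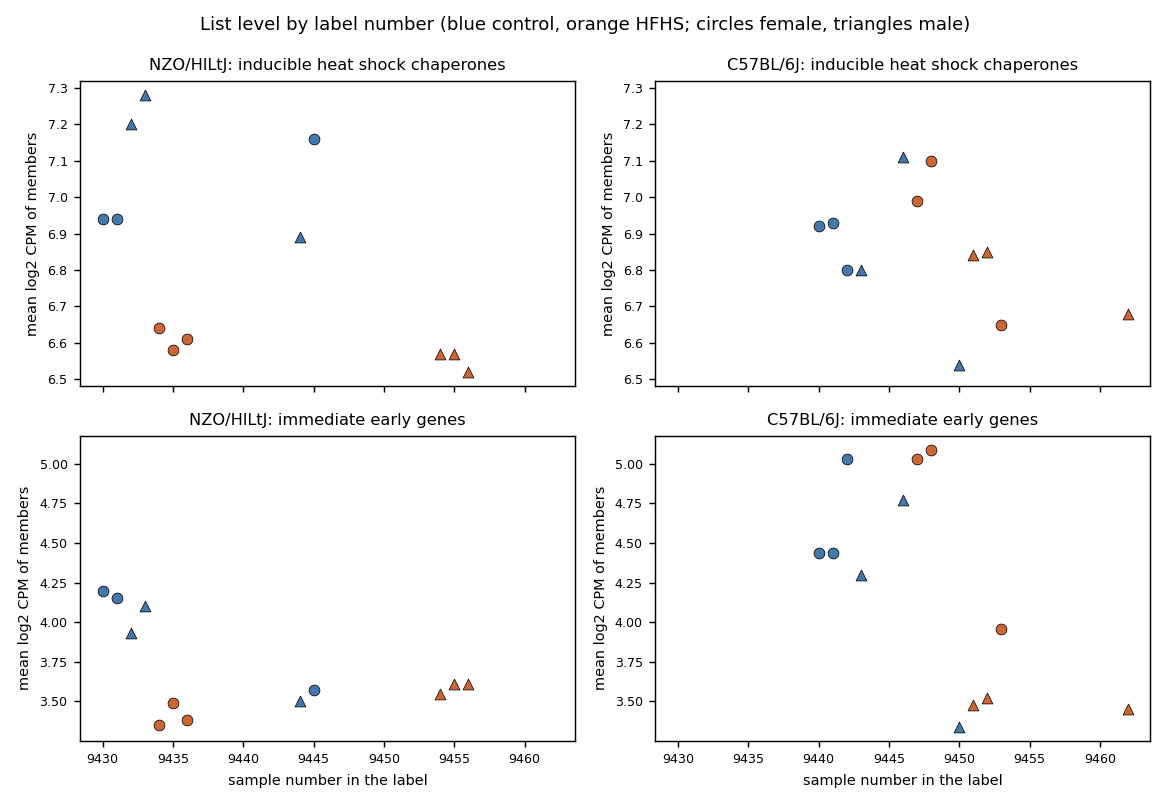
Mean log2 CPM of the chaperone list (top) and the immediate early gene list (bottom) in each library against the sample number in its label, NZO/HlLtJ left and C57BL/6J right, blue for control and orange for HFHS, circles for females and triangles for males. All 6 NZO/HlLtJ controls lie above all HFHS libraries in the chaperone panel, while the immediate early genes of the 2 later controls lie among the HFHS libraries.

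Chaperones of the endoplasmic reticulum pointed the same way with smaller values. Of 24 unfolded protein response genes, 20 had a negative difference, the median was -0.12, and 10 had an unadjusted p under 0.05 (4.39% of all genes in that direction). In NZO/HlLtJ 22 of the 24 had a negative diet change, as did 9521 of all 19517 genes. Only Sdf2l1 of this list was called there, lower by 0.62 log2 units (SE 0.13, adjusted p = 0.0439 by edgeR). In 8 of 24 all NZO/HlLtJ HFHS libraries lay below all controls, as in 0.82% of all genes. Sdf2l1, a partner of Hspa5, spanned 10.7 to 15.4 CPM in NZO/HlLtJ controls and 7.33 to 8.87 CPM on HFHS, and 7.39 to 12 against 7.37 to 13.6 CPM in C57BL/6J. Creld2 (difference -0.52, SE 0.15), the secreted factor Manf (-0.36, SE 0.11) and Hspa5 itself (-0.33, SE 0.12) had no overlap between the NZO/HlLtJ diets either. Hspa5 was 481, 541 and 690 CPM in NZO/HlLtJ controls and 415, 428 and 463 CPM on HFHS, with C57BL/6J groups of 374 to 485 and 354 to 523 CPM. The count of 10 fell to 3 in females alone, where the share of all genes also fell, to 1.93%. It fell to 6 without C57BL/6J HFHS female 2 (3.85% of all genes) or without C57BL/6J control male 3 (3.8%).

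Npy, a peptide that drives feeding (chromosome 6, 49822710 to 49829507), had the largest positive difference of the 15 genes. In NZO/HlLtJ its level was 8.1, 14.7 and 22.1 CPM on control diet and 15.8, 19.9 and 25.0 CPM on HFHS. In C57BL/6J it was 15.9, 19.5 and 24.6 CPM on control diet and 8.49, 11.1 and 15.9 CPM on HFHS. The direction was opposite in the strains, and neither strain's groups were fully apart. The change was 0.51 (SE 0.17, adjusted p = 0.188 by edgeR) in NZO/HlLtJ and -0.78 (SE 0.17, adjusted p = 0.754) in C57BL/6J, which gave a difference of 1.30 (SE 0.24), or 2.45-fold, with an adjusted p of 0.162 by edgeR and 0.00991 by DESeq2. By sex the difference was 1.81 (SE 0.34) in females and 0.78 (SE 0.33) in males, and the contrast of the sexes, 1.02 (SE 0.47), had an adjusted p of 1. NZO/HlLtJ control females gave 10.1, 8.1 and 16.1 CPM and HFHS females 25.0, 23.6 and 16.9 CPM. The NZO/HlLtJ males gave 22.1, 16.6 and 13.3 CPM on control diet and 15.8, 21.7 and 18.2 CPM on HFHS, so the groups were apart in females and not in males.

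Agrp, made by the same neurons, spanned 2.02 to 5.38 and 2.73 to 5.94 CPM in NZO/HlLtJ, and 2.46 to 4.72 and 1.79 to 2.98 CPM in C57BL/6J, each control before HFHS. Its difference was 0.83 (SE 0.32, adjusted p = 0.475 by edgeR), and its annotated span overlaps other genes, so its reads are uncertain. Pomc, the precursor of the satiety peptide alpha-MSH, had a difference of -0.36 (SE 0.17, adjusted p = 0.569): it was 44.9 and 42.8 CPM (medians) in NZO/HlLtJ and 40.9 and 53.3 CPM in C57BL/6J. Pomc is also a pituitary gene, and the pituitary markers had a median change of 0.28 in NZO/HlLtJ and 0.63 in C57BL/6J, with no member called in either strain. The median difference was -0.5, which became 0.34 with the term for sample number and 0.15 in males. The summed level of the 10 of 12 pituitary markers tested, Pomc included, was 245 to 311 CPM in C57BL/6J controls and 254 to 353 CPM on HFHS, against 267 to 326 and 284 to 359 CPM in NZO/HlLtJ. Prolactin (Prl) was at 0 in at least 1 library of each C57BL/6J group and reached 7.07 CPM on HFHS, and the part of pituitary tissue in the Pomc values was not tested. Cartpt had a difference of -0.19 (SE 0.12) and Lepr 0.09 (SE 0.22), and neither had an unadjusted p under 0.05.

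The wider lists of appetite genes had medians near 0, which were -0.01 for 9 orexigenic peptides, 0.01 for 13 anorexigenic peptides and 0.02 for 17 feeding receptors. Among the receptors, 4 had an unadjusted p under 0.05 for a negative difference, against 4.39% of all genes, and 1 for a positive one. The negative ones were Npy1r (-0.37, SE 0.10) and Npy5r (-0.32, SE 0.15), both receptors of Npy, the melanocortin receptor Mc4r (-0.60, SE 0.20) and the orexin receptor Hcrtr2 (-0.24, SE 0.11). Mc4r was 4.07, 4.17 and 5.27 CPM in NZO/HlLtJ controls and 2.5, 3.03 and 4.18 CPM on HFHS, and 3.15 and 3.49 CPM (medians) in C57BL/6J. The receptor of melanin-concentrating hormone, Mchr1, was positive at 0.35 (SE 0.11), through a lower level on HFHS in C57BL/6J (11.9 against 8.98 CPM, medians) and almost equal medians in NZO/HlLtJ (8.53 and 8.71 CPM). Of 18 leptin and insulin signalling genes 16 were negative, with a median of -0.07. Socs3 had a difference of -0.56 (SE 0.22, adjusted p = 0.476 by edgeR) and its relative Socs1 -0.57 (SE 0.23, adjusted p = 0.5). By sex the Socs3 difference was -1.23 (SE 0.31) in males and 0.11 (SE 0.31) in females, and 0 genes were called in the contrast of the sexes. The female value includes NZO/HlLtJ control female 1 at 3.92 CPM, with the other 5 NZO/HlLtJ controls at 6.27 to 8.24 CPM. The male Socs3 levels were 7.52, 7.47 and 8.24 CPM on control diet and 5.14, 5.28 and 5.82 CPM on HFHS in NZO/HlLtJ, and 2.53, 4.64 and 3.06 CPM against 6.7, 5.54 and 4.35 CPM in C57BL/6J. Diet and sample number cannot be told apart within the males of either strain.

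**Figure D3:**
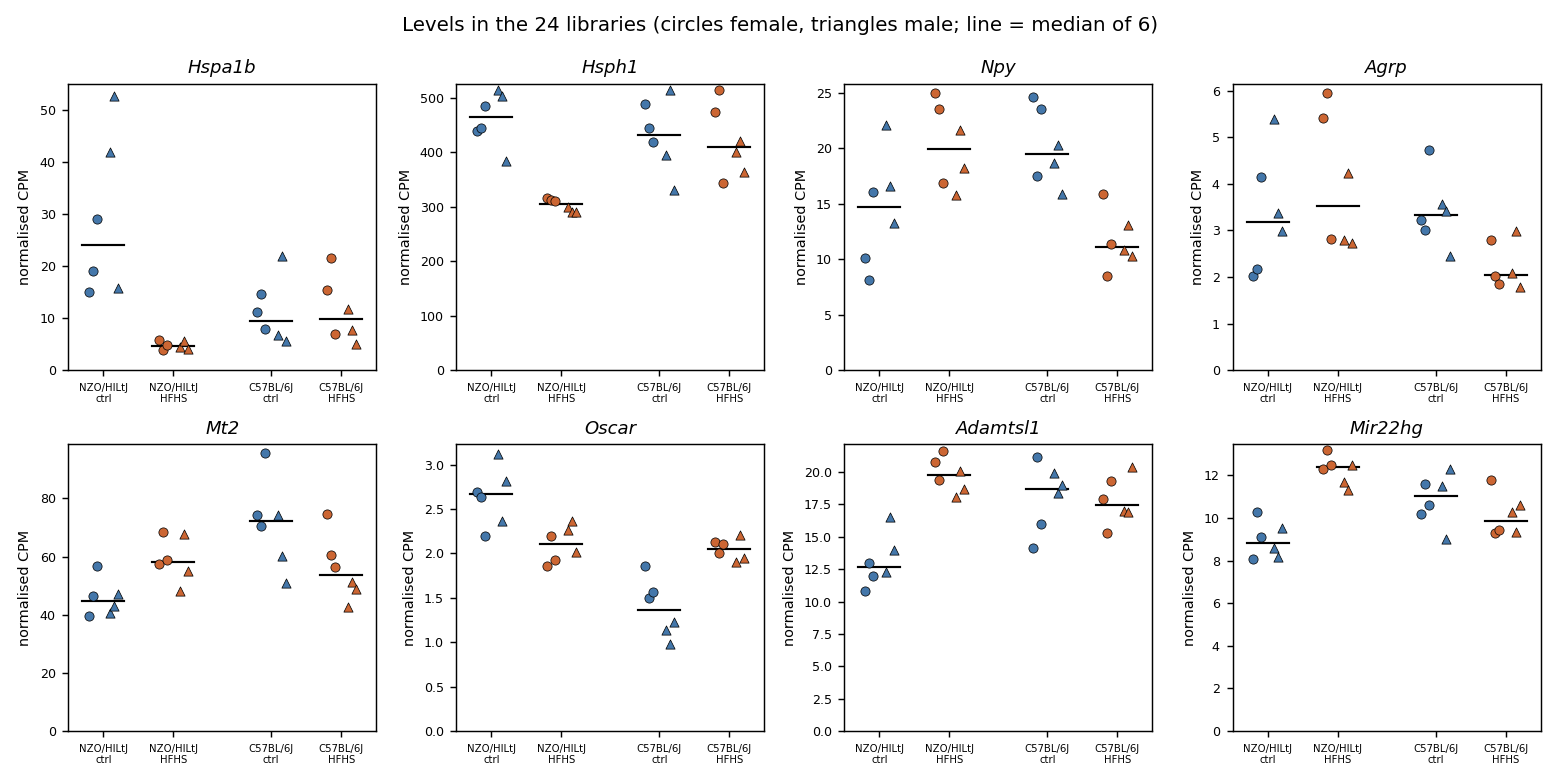
Normalised CPM of 8 genes in the 24 libraries, by strain and diet, blue for control and orange for HFHS, circles for females and triangles for males, with the median of 6 as a line. Hspa1b and Hsph1 separate the diets in NZO/HlLtJ and not in C57BL/6J, Npy goes in opposite directions in the strains, and Oscar separates the diets in C57BL/6J.

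Both metallothionein genes, whose products bind zinc and copper, were positive. Mt2 was 39.5, 44.8 and 56.6 CPM in NZO/HlLtJ controls and 48.3, 58.1 and 68.4 CPM on HFHS, and 51.0, 72.4 and 95.8 CPM against 42.7, 53.8 and 74.8 CPM in C57BL/6J. The groups overlapped in each strain while their medians moved in opposite directions. The difference was 0.73 (SE 0.15, adjusted p = 0.22 by edgeR) for Mt2 and 0.55 (SE 0.12, adjusted p = 0.242) for Mt1, and both had nearly the same value in females and males. They sit among 18 glucocorticoid-induced genes, and the list as a whole had a median of 0.09 with no further member at an unadjusted p under 0.05. In C57BL/6J alone, 6 of the 18 had an unadjusted p under 0.05 for a lower level on HFHS, against 2.22% of all genes, and 0 were called. The mean level of the list in C57BL/6J was 4.59 to 5.17 log2 CPM in the 7 libraries with the lowest sample numbers and 3.86 to 4.36 in the other 5, the same split as for the immediate early genes. With the term for sample number the difference was 0.38 for Mt2 and 0.37 for Mt1, and the list's median was -0.32. The part of what the numbers stand for in the metallothionein values was not tested. Fkbp5, a common marker of glucocorticoid action, was at -0.11 (SE 0.20).

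Oscar, an immunoglobulin-like receptor of myeloid cells, had the smallest p of all genes and a low level. It was 2.19, 2.67 and 3.12 CPM in NZO/HlLtJ controls and 1.86, 2.11 and 2.36 CPM on HFHS. In C57BL/6J it was 0.979, 1.37 and 1.86 CPM on control diet and 1.9, 2.05 and 2.21 CPM on HFHS, where all HFHS libraries were above all controls, as in 0.0871% of all genes. Its difference was -0.91 (SE 0.16, adjusted p = 0.162 by edgeR). The kinetochore gene Nuf2 (-0.78, SE 0.17) and the autophagy regulator Dram1 (-0.90, SE 0.20) had the same shape with overlapping groups. Suv420h2, a histone H4 methyltransferase, was 24.6 to 26.5 CPM in NZO/HlLtJ controls and 18.6 to 22.5 CPM on HFHS, without overlap, and its difference was -0.43 (SE 0.09, adjusted p = 0.233).

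Adamtsl1, Mir22hg, Whamm and Gpr146 rose in NZO/HlLtJ on HFHS, while their C57BL/6J groups overlapped. Adamtsl1, a secreted protein of the extracellular matrix, was 10.8, 12.7 and 16.5 CPM in NZO/HlLtJ controls and 18.1, 19.8 and 21.6 CPM on HFHS. The C57BL/6J groups overlapped at 14.1 to 21.2 and 15.3 to 20.4 CPM. Its rise in NZO/HlLtJ was 0.59 (SE 0.09, adjusted p = 0.00813 by edgeR) and the difference 0.62 (SE 0.13, adjusted p = 0.22). Mir22hg, the host transcript of miR-22, was 8.08 to 10.3 and 11.3 to 13.2 CPM in NZO/HlLtJ against 9.02 to 12.3 and 9.28 to 11.8 CPM in C57BL/6J, with a difference of 0.56 (SE 0.12). Whamm, an actin nucleation promoter, had a difference of 0.31 (SE 0.07) and the receptor Gpr146 0.33 (SE 0.07). Neither had overlapping diets in NZO/HlLtJ.

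Matrix and vessel genes were mostly positive. Of 18 extracellular matrix genes 13 were positive, as were 10077 of all 19517 genes, and the median was 0.16. An unadjusted p under 0.05 for a positive difference was found for 3 (4.03% of all genes): Adamtsl1, the gelatinase Mmp2 (0.37, SE 0.18) and tenascin C, Tnc (0.31, SE 0.14). Mmp2 rose in NZO/HlLtJ, where controls spanned 2.52 to 4.61 CPM and HFHS libraries 4.54 to 6.05 CPM. Kdr, the main VEGF receptor of endothelium, was 13.1, 16.3 and 19.7 CPM in NZO/HlLtJ controls and 20.1, 24.5 and 27.7 CPM on HFHS, and its difference was 0.41 (SE 0.14). The 14 endothelial markers as a list had a median of 0.06. The pericyte channel genes Abcc9 (0.45, SE 0.15) and Kcnj8 (0.41, SE 0.16) were positive among 16 mural and fibroblast markers, which had a median of 0.24. The summed level of those 16 markers was 401 to 1430 CPM in NZO/HlLtJ controls, 978 to 1700 CPM on HFHS, 445 to 1570 CPM in C57BL/6J controls and 807 to 1910 CPM on HFHS; its part in the matrix and vessel values was not tested.

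The reactive astrocyte and complement genes C3, Serpina3n, Gfap and C4b had their largest values in NZO/HlLtJ females on HFHS. They were singled out after their values were seen. All NZO/HlLtJ HFHS females carry lower sample numbers than all NZO/HlLtJ HFHS males. Sex and sample number therefore cannot be told apart in that group. C3, the central complement component, was 6.93, 7.31 and 11.1 CPM in NZO/HlLtJ control females and 22.4, 22.8 and 22.6 CPM in HFHS females. In NZO/HlLtJ males it was 7.11, 10.3 and 12.5 CPM on control diet and 12.5, 10.1 and 12.7 CPM on HFHS. The C57BL/6J libraries lay between 3.8 and 6.18 CPM in all groups. C3 rose in NZO/HlLtJ by 0.82 (SE 0.14, adjusted p = 0.0111 by edgeR), its difference over both sexes was 0.74 (SE 0.20), and the female less male contrast of the difference was 1.40 (SE 0.41, adjusted p = 1). Serpina3n, a protease inhibitor of reactive astrocytes, gave the smallest p of the contrast between sexes, with a value of 1.89 (SE 0.31, adjusted p = 0.0719 by edgeR). It was 59.6, 58.2 and 79.7 CPM in NZO/HlLtJ control females and 192, 176 and 147 CPM on HFHS, against 85.8, 121 and 105 CPM and 96.0, 90.6 and 115 CPM in males. In C57BL/6J it was the males that separated, at 52.1, 43.5 and 40.3 CPM on control diet and 72.8, 73.7 and 61.9 CPM on HFHS, where diet and sample number cannot be told apart. The adjusted p of the Serpina3n contrast between sexes was 0.0177 by edgeR with all 36 libraries. That contrast was called by DESeq2 and limma too, while related neighbouring genes leave the read assignment uncertain.

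The intermediate filament gene Gfap and the complement gene C4b had contrasts between sexes of 1.25 (SE 0.31) and 1.06 (SE 0.26), each with an adjusted p of 1 by edgeR. Gfap was 603 ± 108 CPM (mean ± SD, n = 3) in NZO/HlLtJ control females and 1150 ± 52.8 CPM on HFHS. C4b was 269 ± 46.1 CPM and 470 ± 10.2 CPM in those groups. The 14 astrocyte genes of the reactive list had a median difference of 0.22 over both sexes, which was 0.48 in females, -0.09 in males and -0.07 with the term for sample number, while 13 general astrocyte markers had 0.08 and 14 microglia markers 0.09. In the contrast between sexes, 0 genes of 19517 were called, 532 (2.73%) had an unadjusted p under 0.05, and DESeq2 and limma called 2 each. Such a p was found for 2 of 14 reactive astrocyte genes and 2 of 11 complement genes. It was found for 7 of 22 immediate early genes, where all 22 contrasts were negative with a median of -1.23. The part of sample number in those values was not tested.

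**Figure D4:**
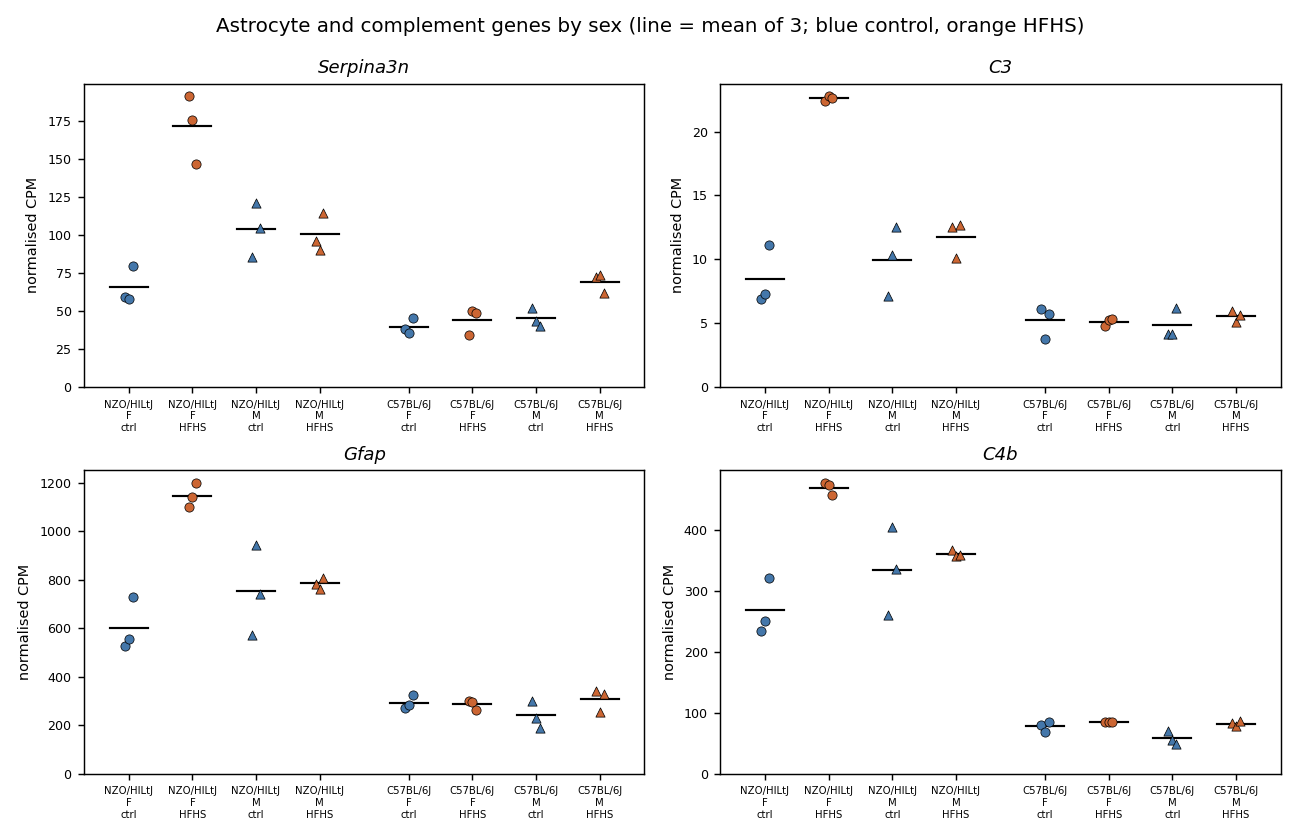
Normalised CPM of Serpina3n, C3, Gfap and C4b by strain, sex and diet, 3 libraries each with the mean as a line, blue for control and orange for HFHS. NZO/HlLtJ females separate by diet in all 4 genes, with C3 at 6.93 to 11.1 CPM on control diet and 22.4 to 22.8 CPM on HFHS. The genes were chosen after their values were seen.

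The remaining lists had small medians. The cytosolic ribosomal proteins (30) had a median of 0.04, which ran from -0.09 to 0.05 over the alternatives, and 26 oxidative phosphorylation genes had 0.05. The difference was positive in all 30 and in 24 of the 26, as in 10077 of all 19517 genes. In C57BL/6J alone the diet change was negative in 27 of the 30 and 25 of the 26. Cholesterol synthesis (20 genes) had a median difference of -0.05. Of these, 3 had an unadjusted p under 0.05 for a negative difference (4.39% of all genes did) and 1 for a positive one (4.03%). The late-step enzymes Sc5d (-0.24, SE 0.08) and Cyp51 (-0.19, SE 0.08) were among the negative ones. Fatty acid genes (18) had 0.05, with Cpt1a, which carries fatty acids to mitochondria, at 0.22 (SE 0.08) and the lipogenic regulator Srebf1 at 0.24 (SE 0.11). The clock repressor Ciart was positive at 0.45 (SE 0.14) among 16 clock genes with a median of 0.03. Irf9, a transcription factor of interferon signalling, was at -0.41 (SE 0.11) in a list of 18 with a median of 0.03.

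**Figure D5:**
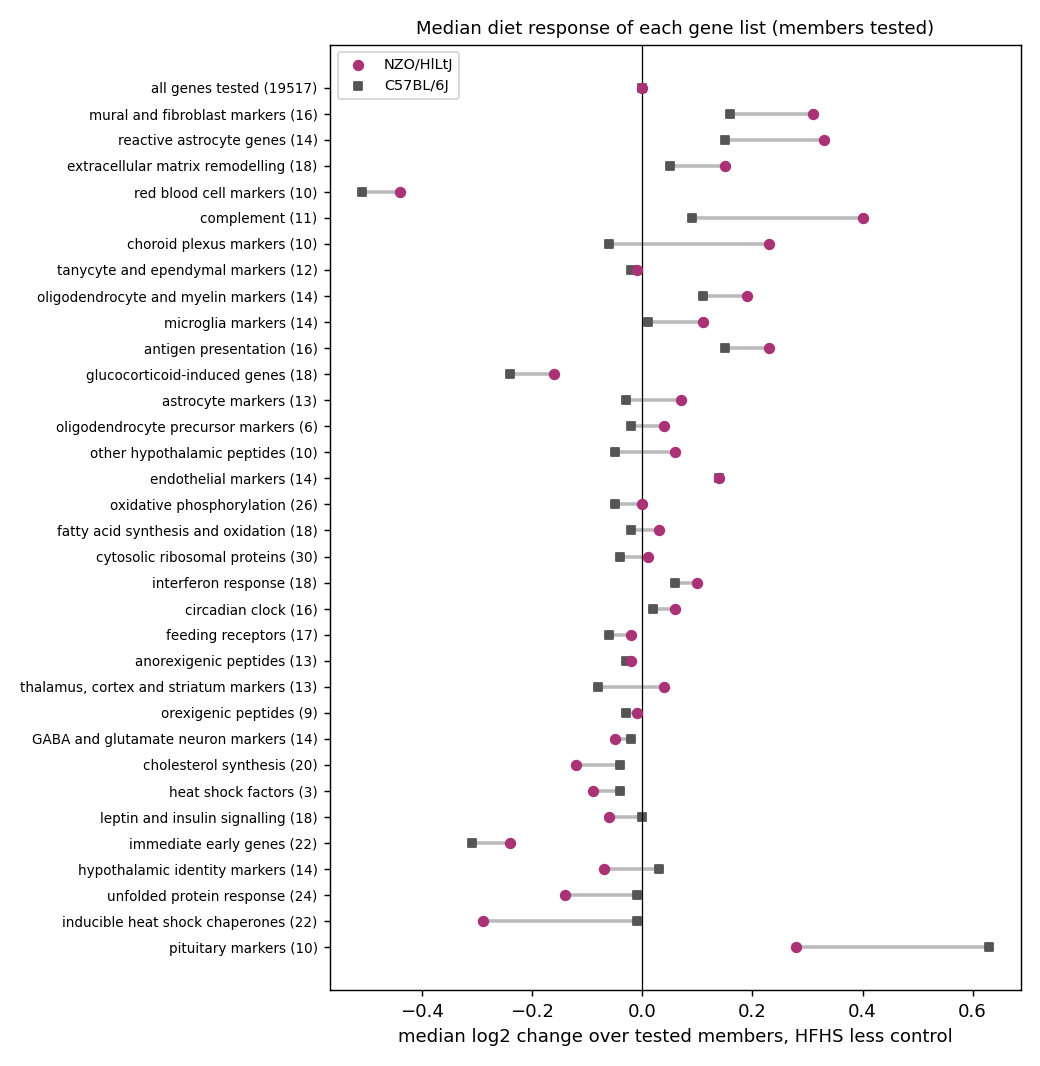
Median diet change in log2 units over the tested members of each gene list, NZO/HlLtJ as circles and C57BL/6J as squares, with a grey line for the gap, and the number of members in brackets. The chaperone list has medians of -0.29 and -0.01, and all genes tested have medians of 0 in both strains.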

How the data were processed

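RNA-seq of hypothalamus was taken in 36 libraries, of which the 24 of NZO/HlLtJ and C57BL/6J were compared. Per the labels' protocols, libraries of polyadenylated RNA were read as paired 100-base reads. The authors deposited expected counts per gene, meaning estimated counts, of which 26.6% of the values used were not whole. The deposited log2 values of a second table were made by the authors with a variance-stabilizing transformation. DESeq2 and GRCm38 are named in the submitters' processing notes. The sources used here do not give the aligner, counter, annotation release or use of strand.

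Counts were rounded, which moved library totals by at most 0.000186%. Of 24265 genes, 19517 passed the edgeR filter; the deposited genes were each detected in 19 or more of the 36 libraries. The test was edgeR 4.0.16 (quasi-likelihood F-test, TMM, R 4.3.3) on 8 group means with 16 residual degrees of freedom, adjusted by Benjamini-Hochberg over all tested genes and called under 0.05. Log2 CPM used a prior count of 2. The script was tested on simulated data. Gene types and exons came from GENCODE M21. Alternatives used DESeq2 1.42.0, limma 3.58.1, other filters, scalings and terms, 36 libraries, each sex alone, and each library left out.

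The comparison, the 33 gene lists and the use of 24 libraries were chosen with earlier results of these data known. The text names the 15 genes with the smallest p among those with a proper symbol and an average of 1 CPM or more, up to 6 members with the smallest p of each list discussed, and fixed feeding and chaperone genes. C3, Serpina3n, Gfap and C4b were named for the contrast between sexes after their values were seen. Spike-in transcripts were not analysed here.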

Additional observations from a re-analysis of the deposited data

Results flagged for a closer look

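Among 100 groups of 6 libraries examined for the named genes, 2 held a library far from the other 5 by Dixon's test, where chance gives about 1 in 20. Socs3 was 3.92 CPM in NZO/HlLtJ control female 1, with the other 5 controls at 6.27 to 8.24 CPM. Dram1 was 1.41 CPM in NZO/HlLtJ HFHS female 3, with the other 5 at 1.77 to 2.03 CPM.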

How the results depend on the processing

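No paired analysis was possible because no replicate number is shared between the groups in the labels. The count of genes called for the difference was 0 by edgeR, 18 by DESeq2, 2 in females alone, and 0 to 23 with single libraries left out (2 without NZO/HlLtJ control female 3, 23 without C57BL/6J control male 2). The NZO/HlLtJ diet count of 45 became 29 with 36 libraries, 281 by DESeq2, 68 with at least 1 CPM in 12 libraries, 8 in females, 0 in males, 0 with a sample number term, 0 without the 4 low-number controls, and 7 to 102 with single libraries left out (7 without NZO/HlLtJ HFHS male 1, 102 without C57BL/6J control male 2, 97 without C57BL/6J HFHS female 3). The C57BL/6J diet count was 3 in females and 0 to 1 with single libraries left out. The difference in females gave 3 genes by DESeq2, 2 by limma, 1 with the number term and 0 to 4 with single libraries left out; in males it gave 1 without the 4 low-number controls and 0 to 1 with single libraries left out. The contrast of the sexes gave 1 gene with 36 libraries, 2 by DESeq2, 2 by limma, 1 without a filter, 1 with the number term and 0 to 1 with single libraries left out. Values that changed sign were Cartpt (0 in females), Lepr (-0.08 in males, -0.03 without C57BL/6J HFHS male 2, within -0.03 to 0.2 with single libraries left out), Socs3 (0.11 in females), Bag3 (0.14 in females), Hspb8 (-0.21 with the number term), Fosb (0.43 in males), Prl (3.57 with the number term, against -5.61), C4b (-0.08 with the number term, -0.38 in males), Gfap (-0.29 in males) and Serpina3n (-0.02 with the number term, -0.67 in males, and -0.05 for diet in NZO/HlLtJ males); the cause was not tested. All other named differences kept their sign under every alternative run. Of 69 named differences, 35 moved by over 1.5 times with the number term, 40 by limma on the deposited log2 values and 16 without the 4 low-number controls. With the number term the list medians also changed sign for anorexigenic peptides (-0.16), feeding receptors (-0.07), clock genes (-0.02), interferon genes (-0.19), cholesterol synthesis (0.05), fatty acid genes (-0.02), oxidative phosphorylation (-0.06) and ribosomal proteins (-0.09), and the orexigenic median was -0.29.

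With each library left out, 18 to 20 of the 22 chaperones had an unadjusted p under 0.05 for a negative difference, and 12 to 19 did under the other alternatives. For the unfolded protein response list these ranges were 6 to 12 and 3 to 15 of 24. The share of all genes with such a p ran from 3.71% to 5.96% with each library left out. It ran from 1.93% to 4.89% under the other alternatives.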

Other observations

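The 10 red blood cell markers had a median change of -0.44 in NZO/HlLtJ and -0.51 in C57BL/6J, with no member called in either strain. In NZO/HlLtJ females their mean level was 5.2, 4.98 and 5.48 log2 CPM on control diet and 4.9, 4.27 and 4.31 on HFHS, against 4.29, 4.51 and 4.92 and then 4.56, 4.32 and 4.72 in males, where the groups overlapped. The median difference was 0.15, and it was -0.33 in females, 0.93 in males and -0.64 with the sample number term. The antigen presentation list (16 genes) had positive medians in both strains, 0.23 and 0.15, and a median difference of 0.09. Slc17a7, a transporter of cortical and thalamic excitatory neurons, varied widely between libraries, from 0.263 to 11.3 CPM in NZO/HlLtJ controls and from 0.0426 to 6.61 CPM in C57BL/6J controls, and its difference of 2.79 (SE 1.19) had an adjusted p of 0.525 by edgeR.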
